A study of Homo sapiens with 6 samples.

Results

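A set of 36 genes of glycolysis and of the cellular response to low oxygen was followed by symbol in the RNA sequencing of 231-BR and MDA-MB-231 cells, and all 36 were found among the 17039 genes of the table. MDA-MB-231 is an established human triple-negative breast cancer line, and 231-BR (MDA-MB-231-BR) is its brain-seeking variant, used as a preclinical model of breast cancer brain metastases. Each line gave 3 libraries of poly(A) RNA, and both were kept in DMEM with 10% fetal bovine serum and penicillin-streptomycin. The 231-BR medium also held G418 at 200 μg/mL, so that the line, its selection drug and its culture history cannot be told apart. The labels do not say whether the libraries of a line came from separate cultures, and the p-values measure only the spread between these libraries.

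Glycolysis splits glucose into pyruvate in the cytosol, and lactate dehydrogenase turns pyruvate into lactate, which leaves the cell through monocarboxylate transporters. Many tumor cells run this path at a high rate even when oxygen is present. When oxygen falls, the hydroxylases that mark the alpha subunits of the hypoxia-inducible factors (HIF) for destruction slow down, and the stabilised factors raise the transcription of glucose transporters, glycolytic enzymes and genes of pH control, blood vessel tone and mitophagy. HIF activity is therefore set largely at the level of the protein, which was not measured here, and the cells were not exposed to low oxygen as far as the labels say.

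Expression was given as FPKM, which scales the fragments of a gene by transcript length and by the mapped total of the library. FPKM does not correct for differences in composition between libraries, so fold changes between the lines depend on the scaling, and other scalings were run as alternatives. The table gives no read counts, and the depth per library is unknown. The summed FPKM was 465020 to 472007 in 231-BR libraries and 486937 to 496420 in MDA-MB-231 libraries, and log2 values of libraries of the same line correlated across genes at 0.9966 to 0.9981. Both lines had VIM between 2273 and 2566 FPKM in every library, together with the epithelial keratins KRT8 (173.92 to 244.47 FPKM) and KRT18 (269.09 to 365.42 FPKM). The hormone receptors and E-cadherin were low, with ESR1 at or below 1.08, PGR at or below 0.07 and CDH1 at or below 0.03. ERBB2 reached 10.2 FPKM and EPCAM 9.31 in 231-BR cells. Of 12 markers of leukocytes, endothelium, fibroblasts, glia and neurons, 10 could be read (the others were not analysed here), and none was above 0.98 FPKM in any library. Their summed FPKM was 1.13 to 1.20 in 231-BR libraries, against 1.17 to 1.32 in those of MDA-MB-231. PTPRC and CD3E were listed at 0 in all MDA-MB-231 libraries, COL1A2 and AIF1 in all 231-BR libraries, and CDH5, GFAP and MOG stayed at or below 0.09 FPKM. In bulk RNA, fewer cells of a type and less RNA per cell cannot be told apart.

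The filter of at least 0.1 FPKM on average was passed by 35 of the 36 genes, which were tested, with limma on log2(FPKM + 0.1) and Benjamini-Hochberg adjustment over all 13465 genes tested. Relative to MDA-MB-231 cells, 231-BR cells had 10 genes higher and 21 lower (adjusted p under 0.05), and 4 did not pass. Most genes of the table differed at this threshold: 77.3% of all genes tested passed it, 44.4% in the higher and 32.9% in the lower direction. The median log2 fold change of these 35 was -0.15, against 0.08 over all genes tested (-0.13 against -0.06 after quantile normalization). Some of the genes are very abundant, and over the 751 genes with a mean of at least 100 FPKM the median was -0.14, with 428 lower and 238 higher. Over the 6309 genes with a mean of at least 10 FPKM it was -0.002, with 2659 lower and 2657 higher. The study's criteria for differential genes were an adjusted p under 0.05 with an absolute log2 fold change over 1 and an FPKM of at least 1 (asked here of both means). In the limma fit they were met by CA12, which was higher, and by DDIT4 and ENO2, which were lower. The study called its genes with a count test, and its differential genes also held HIF1A. Over all genes tested these criteria were met by 4.68% in the higher and 1.77% in the lower direction. No library reached the range of the other line for 30 of the 35, against 78.4% of all genes tested.

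**Figure D1:**
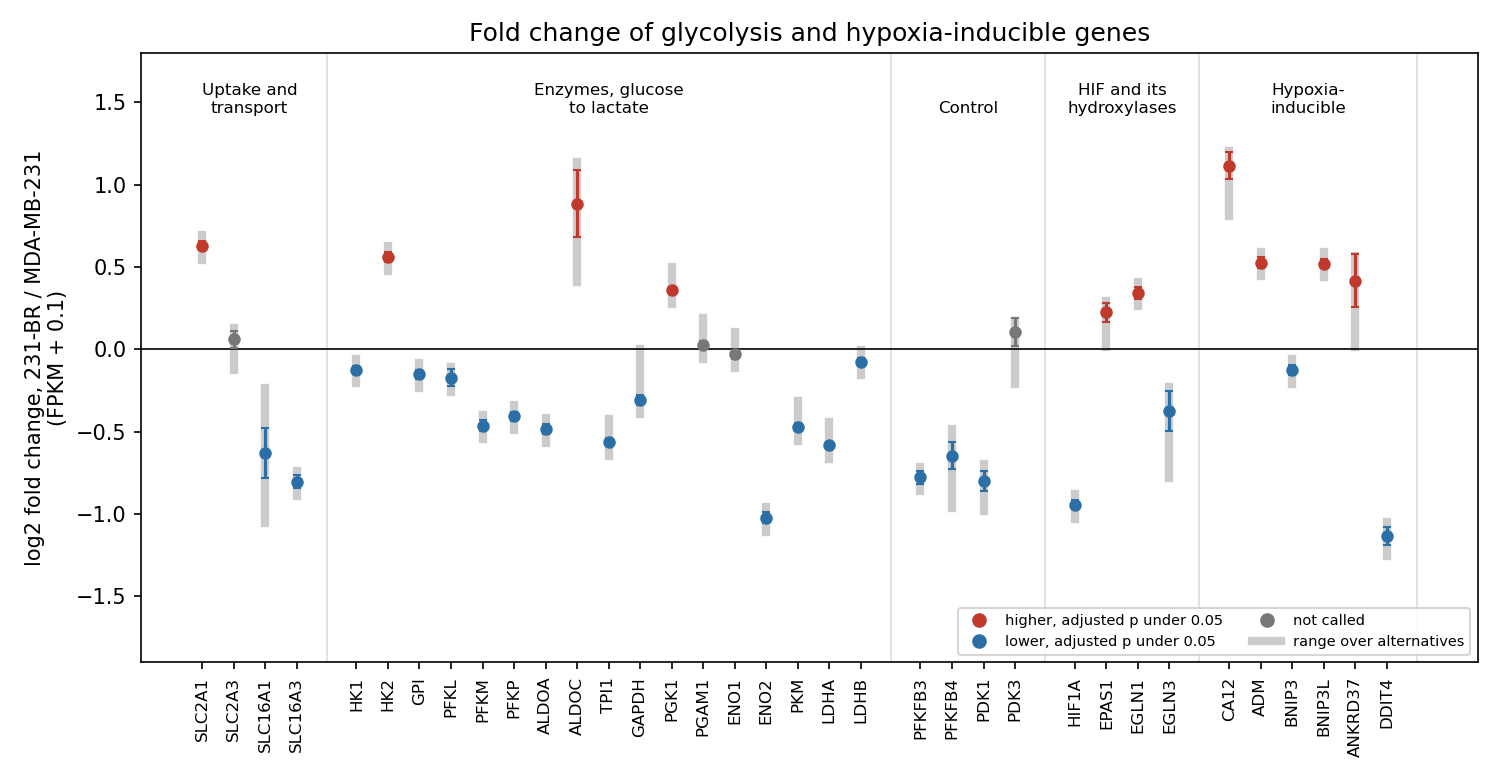
Points give the log2 fold change of each tested gene (231-BR against MDA-MB-231, FPKM + 0.1) with its standard error from limma, colored by the call, and grey bars give the range over the alternative settings. Changes run from -1.13 for DDIT4 to 1.12 for CA12, and the enzymes between glucose and lactate lie mostly below 0.

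The glucose transporter SLC2A1 (GLUT1), present in most cell types, had 92.76, 95.58 and 93.00 FPKM in 231-BR libraries, compared with 58.67, 61.95 and 61.25 FPKM in MDA-MB-231 libraries. Every 231-BR library was above every MDA-MB-231 library, and the mean rose 1.55-fold (log2 fold change 0.63, standard error 0.028, adjusted p = 1.6e-08 from limma). SLC2A1 lies on chromosome 1 at 42925375 to 42959176, minus strand (GENCODE 29, GRCh38.p12). SLC2A3 (GLUT3), the high-affinity transporter typical of neurons, had 6.61, 6.41 and 6.30 FPKM in 231-BR cells, compared with 6.49, 5.87 and 6.16 in MDA-MB-231 cells. The ranges of SLC2A3 overlapped, its log2 fold change of 0.06 did not pass the test, and its sign turned under other scalings (-0.02 after median-of-ratios scaling and -0.13 after quantile normalization). SLC2A3 made up 6.28% to 6.65% of the FPKM of the pair in 231-BR libraries and 8.66% to 9.96% in MDA-MB-231 libraries.

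The first step of glycolysis, the phosphorylation of glucose, is carried out by hexokinases. HK2, the inducible hexokinase of many tumors, had 36.54, 37.21 and 35.96 FPKM in 231-BR libraries against 24.67, 25.02 and 24.55 FPKM in MDA-MB-231 libraries. HK2 rose 1.48-fold with no overlap (log2 fold change 0.56, standard error 0.028, adjusted p = 3.6e-08 from limma). HK1, the constitutive form, was the more abundant hexokinase in both lines, with 78.67, 78.75 and 78.36 FPKM in 231-BR cells, compared with 84.85, 85.37 and 86.74 FPKM in MDA-MB-231 cells, and fell by 0.12 on the log2 scale. HK2 thus held 31.5% to 32.1% of hexokinase FPKM in 231-BR libraries and 22.1% to 22.7% in MDA-MB-231 libraries. The summed FPKM of both hexokinases was 115 ± 0.821 in 231-BR cells, compared with 110 ± 0.885 in MDA-MB-231 cells (SD over 3 libraries each), a log2 difference of 0.06 that turned to -0.02 after median-of-ratios scaling.

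The enzymes of the next steps were lower in 231-BR cells. GPI, which converts glucose-6-phosphate to fructose-6-phosphate, had 91.3 ± 1.66 FPKM against 101 ± 2.39 (SD over 3 libraries each), which is -0.15. as a log2 fold change Phosphofructokinase, the committed step, is built from the subunits PFKP (platelet type), PFKM (muscle type) and PFKL (liver type), and all 3 were lower. PFKP had 96.09, 99.95 and 95.61 FPKM in 231-BR libraries and 125.43, 129.98 and 130.95 in MDA-MB-231 libraries, a log2 fold change of -0.41. PFKM had 20.83, 20.48 and 20.93 FPKM against 28.30, 29.52 and 28.05, a log2 fold change of -0.46. For both genes the lines were separated by more than the whole range within a line. PFKL had 18.27, 18.06 and 17.50 FPKM against 18.63, 20.60 and 21.62, so that the lowest MDA-MB-231 library lay just above the highest 231-BR library, and its log2 fold change of -0.17 no longer passed when FPKM were scaled to the sum of the library (adjusted p = 0.072 from limma, -0.11). PFKM shares its locus with SENP1 on the opposite strand, as do TPI1 with SPSB2, PGK1 with PGAM4, BNIP3L with PNMA2 and ANKRD37 with UFSP2, and the sources used here do not say that the counting kept the strand.

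ALDOA, the main aldolase, had 454.84, 467.70 and 471.18 FPKM in 231-BR libraries and 621.61, 663.36 and 664.08 in MDA-MB-231 libraries. It fell by 0.48 on the log2 scale, and no library of a line reached the range of the other. ALDOC, the aldolase of brain, went the other way at far lower levels, with 1.02, 0.94 and 1.04 FPKM in 231-BR cells, compared with 0.36, 0.75 and 0.44 in MDA-MB-231 cells. Its log2 fold change was 0.88 (standard error 0.20, adjusted p = 0.0025 from limma), and after quantile normalization it was 0.45 with an adjusted p of 0.072. TPI1, which interconverts the triose phosphates, had 377.31, 381.48 and 384.04 FPKM in 231-BR libraries and 549.63, 563.55 and 575.69 in MDA-MB-231 libraries, a log2 fold change of -0.56 with a standard error of 0.023 (limma, adjusted p = 9.1e-09).

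GAPDH, which oxidises glyceraldehyde-3-phosphate, is also the reference gene of the study's quantitative RT-PCR. It was the gene with the second highest FPKM in all 6 libraries, with 3816.18, 3923.01 and 3916.71 FPKM in 231-BR cells, compared with 4627.40, 4851.93 and 4946.66 in MDA-MB-231 cells. All 231-BR libraries were below all MDA-MB-231 libraries, and the log2 fold change was -0.31 (standard error 0.029, adjusted p = 4.1e-06 from limma). After quantile normalization no difference was left for GAPDH, because that scaling gives the second gene of each library the same value. The primers of the study are shown because they define what was used as the reference, and each matches GAPDH on chromosome 12 (6533927 to 6538374, plus strand, GENCODE 29, GRCh38.p12) without mismatch.

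GAPDH forward primer, 6536930 to 6536949, exon 5 of GAPDH-201: TCCAAAATCAAGTGGGGCGA
GAPDH reverse primer, 6537115 to 6537134, exon 6 of GAPDH-201: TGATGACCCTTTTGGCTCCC

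The pair spans an intron and gives a product of 115 bases on 10 annotated GAPDH transcripts, and both primers also match a transcript of the pseudogene GAPDHP1 without mismatch. GENCODE 29 holds 62 pseudogenes named after GAPDH, and reads of near-identical copies could have been divided or lost in the authors' alignment, as could those of PGAM1 (13 named pseudogenes), BNIP3 (39), LDHA (6), PKM (5), TPI1 (4) and ENO1 (4). None of these pseudogenes is in the table. Of 12 other genes often used as references, 9 were lower in 231-BR cells, 1 was higher and 2 did not pass the test, with a median log2 fold change of -0.24 (32.9% lower and 44.4% higher over all genes tested). After quantile normalization 7 were lower and 2 higher, ACTB had 0.01 and RPL13A 0.06. As deposited, ACTB had a log2 fold change of -0.31, HPRT1 -0.31, B2M -0.29, PPIA -0.24, SDHA -0.24, GUSB -0.47, RPL13A -0.11 and YWHAZ -0.10. TBP (-0.08) and RPLP0 (-0.04) did not pass. The fold change of GAPDH was thus close to those of ACTB, HPRT1 and B2M in these libraries.

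The ATP-yielding step that follows behaved differently. PGK1, phosphoglycerate kinase, had 242.88, 245.74 and 241.27 FPKM in 231-BR libraries and 187.78, 193.30 and 187.87 in MDA-MB-231 libraries. PGK1 rose 1.28-fold with no overlap (log2 fold change 0.36, standard error 0.022, adjusted p = 1.5e-07 from limma). PGAM1, phosphoglycerate mutase, had 318.42 to 329.96 FPKM against 315.60 to 323.79, ranges that overlapped, and a log2 fold change of 0.03. ENO1, the main enolase, had 1408.07, 1454.10 and 1430.38 FPKM against 1413.58, 1459.81 and 1507.76, also with overlap, and a log2 fold change of -0.03. Neither PGAM1 nor ENO1 passed the test, and the sign of both turned with the scaling: PGAM1 had -0.06 after median-of-ratios scaling and 0.19 after quantile normalization, and ENO1 had -0.11 and 0.11.

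ENO2, the enolase of neurons and neuroendocrine cells, showed the largest decrease of the enzymes. It had 10.44, 10.43 and 10.26 FPKM in 231-BR libraries and 20.79, 21.51 and 21.19 FPKM in MDA-MB-231 libraries. The level was 2.03-fold lower in 231-BR cells, with no overlap (log2 fold change -1.02, standard error 0.033, adjusted p = 2.0e-09 from limma). ENO2 lies close to the fold criterion, and the value was -0.96 when FPKM were scaled to the sum of the library. Because ENO1 is far more abundant, ENO2 was 0.712% to 0.736% of enolase FPKM in 231-BR libraries and 1.39% to 1.45% in MDA-MB-231 libraries, and the summed enolase FPKM was 1441 ± 23.0 against 1482 ± 47.3 (SD over 3 libraries each).

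PKM, pyruvate kinase, whose splice forms PKM1 and PKM2 are not separated in the table, had 890.26, 918.52 and 912.54 FPKM in 231-BR libraries and 1233.97, 1265.09 and 1274.87 in MDA-MB-231 libraries. It fell by 0.47 on the log2 scale, with no overlap (adjusted p = 3.0e-08 from limma). LDHA, the lactate dehydrogenase subunit that favors lactate formation, had 521.04, 519.57 and 513.64 FPKM in 231-BR libraries and 773.81, 770.15 and 784.38 in MDA-MB-231 libraries, and fell by 0.58 (standard error 0.020, adjusted p = 2.6e-09 from limma). LDHB, the subunit typical of heart, had 608.76, 612.97 and 608.89 FPKM against 641.87, 638.75 and 645.64. LDHB did not overlap between the lines either, but its log2 fold change was -0.07, which no longer passed after quantile normalization (adjusted p = 0.70 from limma) or after scaling to the sum (0.77). The order of the subunits differed between the lines: LDHB was 53.9% to 54.2% of lactate dehydrogenase FPKM in 231-BR libraries and 45.1% to 45.3% in MDA-MB-231 libraries.

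Over the whole path from glucose to lactate, 12 of the 17 enzyme genes were lower in 231-BR cells, 3 were higher (HK2, ALDOC and PGK1) and 2 did not pass, with a median log2 fold change of -0.17. By comparison, 32.9% of all genes tested were lower and 44.4% higher. Among the 751 genes with a mean of at least 100 FPKM, 428 were lower and 238 higher. The summed FPKM of the 17 enzymes was 8989.50, 9209.84 and 9156.29 in 231-BR libraries and 10766.9, 11145.2 and 11319 in MDA-MB-231 libraries, or 1.93% to 1.95% of all FPKM against 2.21% to 2.28%. The sums did not overlap and differed by -0.28 on the log2 scale, which gave p = 0.1 in an exact two-sided permutation test, the smallest that 3 libraries against 3 allow. Without GAPDH the difference was -0.26. It was -0.36 after median-of-ratios scaling, -0.21 when FPKM were scaled to the sum of the library and -0.08 after quantile normalization.

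**Figure D2:**
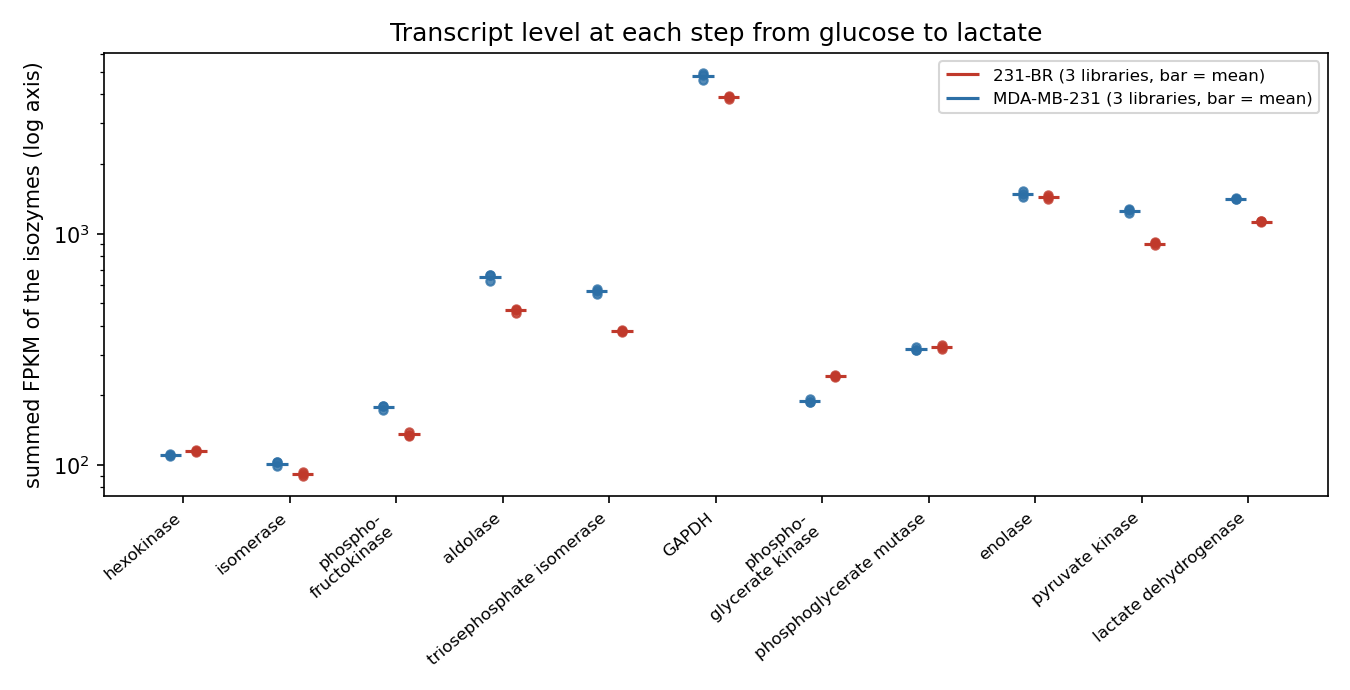
Points give the FPKM summed over the isozymes of each step in each library on a log axis, and bars give the mean of the 3 libraries of a line. As deposited, MDA-MB-231 libraries lie higher from the isomerase to GAPDH (equal for GAPDH after quantile normalization) and at pyruvate kinase and lactate dehydrogenase. In the same values, 231-BR libraries lie higher at phosphoglycerate kinase (243 against 189.7 FPKM) and, by 0.06 on the log2 scale (-0.02 after median-of-ratios scaling), at hexokinase, and the mutase and enolase steps overlap.

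Lactate leaves cells through SLC16A3 (MCT4), the transporter of strongly glycolytic cells. SLC16A3 had 48.60, 53.40 and 50.92 FPKM in 231-BR libraries and 85.69, 88.81 and 92.76 in MDA-MB-231 libraries. It was 1.75-fold lower in 231-BR cells (log2 fold change -0.80, standard error 0.040, adjusted p = 3.4e-08 from limma), and the lines did not overlap. CSNK1D lies on the opposite strand over part of the SLC16A3 locus. SLC16A1 (MCT1) was barely expressed, with 0.32, 0.27 and 0.39 FPKM against 0.59, 0.57 and 0.51, so that SLC16A3 made up 99.2% to 99.5% of the pair in the libraries. SLC16A1 also fell, by 0.63 on the log2 scale (standard error 0.15, adjusted p = 0.0031 from limma), and by 0.23 with a pseudocount of 1. BSG (basigin), the chaperone that brings these transporters to the membrane, had 287 ± 7.64 FPKM against 403 ± 13.8 (SD over 3 libraries each), which is -0.49. as a log2 fold change

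Of the genes that steer the path, PFKFB3, PFKFB4 and PDK1 were lower in 231-BR cells and PDK3 did not pass. PFKFB3 makes fructose-2,6-bisphosphate, the strongest activator of phosphofructokinase, and had 10.91, 11.31 and 11.85 FPKM in 231-BR libraries against 19.23, 19.89 and 19.39 in MDA-MB-231 libraries, a log2 fold change of -0.78 with a standard error of 0.040 (limma, adjusted p = 4.7e-08). PFKFB4, a second isoform, had 2.26, 2.05 and 1.98 FPKM against 3.10, 3.31 and 3.60, a log2 fold change of -0.65. Neither gene overlapped between the lines, and their ratio within a library did (exact two-sided permutation p = 0.3). PFKFB2, outside the 36 genes, had 3.07 ± 0.070 FPKM against 1.25 ± 0.050 (SD over 3 libraries each), which is 1.23. as a log2 fold change PDK1, a kinase that blocks the entry of pyruvate into the citric acid cycle, had 4.29, 4.36 and 4.65 FPKM in 231-BR libraries and 8.16, 7.20 and 8.01 in MDA-MB-231 libraries, and fell by 0.80 (standard error 0.062, adjusted p = 1.0e-06 from limma). PDK3 had 2.48, 2.42 and 2.61 FPKM against 2.11, 2.54 and 2.33, with overlap, and did not pass (log2 fold change 0.10, and -0.21 after quantile normalization). PDK3 was 35.7% to 36.6% of the pair in 231-BR libraries and 20.5% to 26.1% in MDA-MB-231 libraries. PDK2, a kinase of the same family outside the 36 genes, went the other way from PDK1. It had 10.2 FPKM in 231-BR cells against 4.04 in MDA-MB-231 cells, a log2 fold change of 1.32.

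The paired forms were compared as ratios within a library, (FPKM + 0.1) of both, on which a constant factor for the whole library has almost no effect except at low FPKM. In 11 of 14 pairs the ratios of the lines did not overlap, a share near the 78.4% of single genes tested that did not overlap, and each of these 11 pairs gave an exact two-sided permutation p of 0.1, the smallest possible, with 0.13 after Benjamini-Hochberg adjustment over the 14 pairs. The log2 ratio was higher in 231-BR cells for ALDOC to ALDOA (by 1.37), EPAS1 to HIF1A (1.17), PDK3 to PDK1 (0.90), HK2 to HK1 (0.69), BNIP3L to BNIP3 (0.65) and LDHB to LDHA (0.51). It was lower for ENO2 to ENO1 (-0.99), EGLN3 to EGLN1 (-0.72), SLC2A3 to SLC2A1 (-0.57), PFKM to PFKL (-0.29) and PFKP to PFKL (-0.23). ALDOC was near 1 FPKM or below, and its own log2 fold change of 0.88 was 0.41 with a pseudocount of 1. The ratios of SLC16A3 to SLC16A1, PFKFB4 to PFKFB3 and CA12 to CA9 overlapped.

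**Figure D3:**
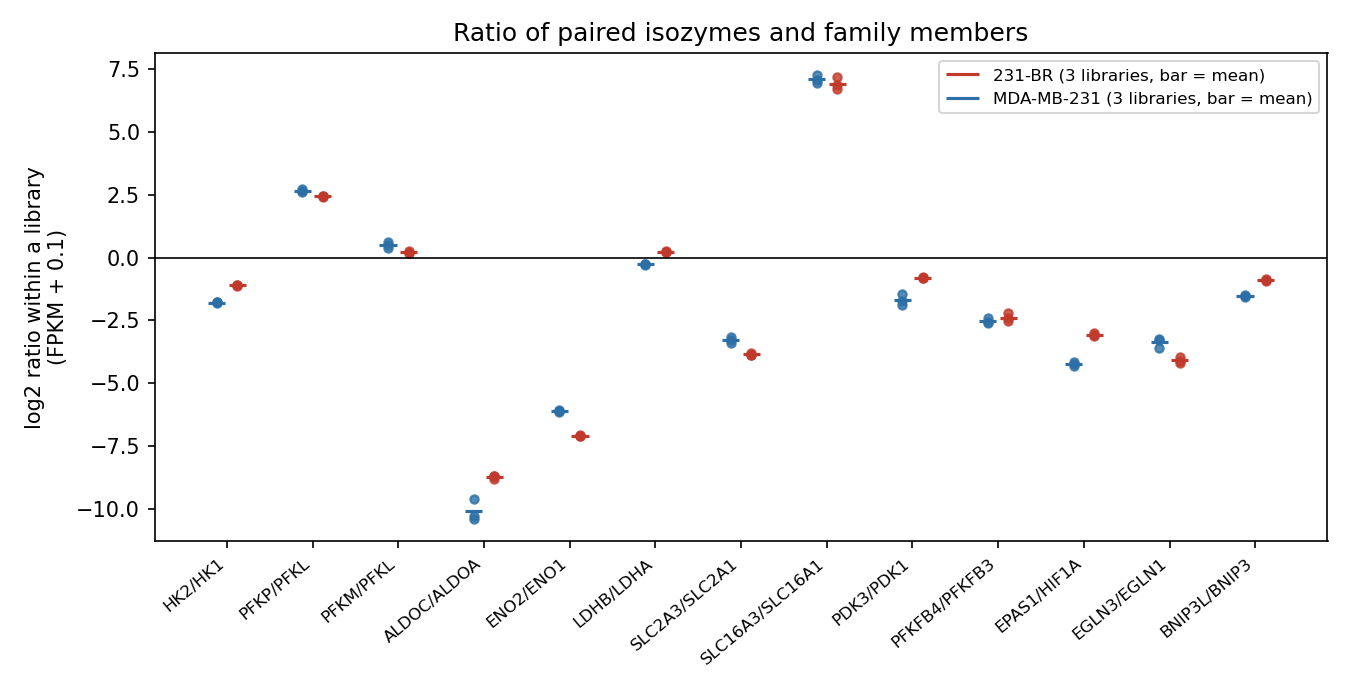
Points give the log2 ratio of 13 pairs (FPKM + 0.1) in each library and bars the mean of a line. Above 0 the first gene is the more abundant, and LDHB to LDHA crosses 0 between the lines (0.24 in 231-BR and -0.27 in MDA-MB-231 cells).

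HIF1A encodes the oxygen-labile alpha subunit present in most cells. It had 49.22, 47.81 and 47.70 FPKM in 231-BR libraries, compared with 95.80, 91.34 and 91.68 in MDA-MB-231 libraries, and every 231-BR library was lower. The decrease was 1.92-fold (standard error of the log2 value 0.028, adjusted p = 9.0e-10 from limma), short of the fold criterion at -0.94 and past it after median-of-ratios scaling (-1.03). The study, with its own count test, listed HIF1A among the hub genes of the network of its differential genes. HIF1A lies on chromosome 14 at 61695513 to 61748259, plus strand, where GENCODE 29 also places HIF1A-AS1 and HIF1A-AS2 on the opposite strand. EPAS1, which encodes HIF-2α, the alpha subunit first described in endothelium, had 5.62, 5.54 and 5.91 FPKM against 4.94, 5.06 and 4.56. EPAS1 rose by 0.23 on the log2 scale with no overlap (adjusted p = 0.0052 from limma), and after quantile normalization the difference was 0.02 (adjusted p = 0.82). EPAS1 was 10.25% to 11.02% of the pair in 231-BR libraries and 4.74% to 5.25% in MDA-MB-231 libraries, so that HIF1A was the more abundant transcript in both lines.

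Of the hydroxylases that mark HIF for destruction, EGLN1 and EGLN3 are themselves HIF-inducible. EGLN1 (PHD2), the main one in normal oxygen, had 19.61, 19.59 and 20.85 FPKM in 231-BR libraries and 15.93, 15.30 and 16.01 in MDA-MB-231 libraries, a log2 fold change of 0.34 (adjusted p = 1.4e-05 from limma). EGLN3 (PHD3) had 0.99, 1.17 and 1.12 FPKM against 1.23, 1.5 and 1.63, a log2 fold change of -0.37 (adjusted p = 0.016 from limma). The EGLN3 ranges came within 0.06 FPKM of each other, and the call was lost without replicate 1 of 231-BR (adjusted p = 0.060 from limma) and also without replicate 3 of MDA-MB-231 (0.063). Of 14 other genes of HIF regulation that could be tested, 5 were higher, 7 lower and 2 did not pass, with a median log2 fold change of -0.14 (44.4% higher and 32.9% lower over all genes tested). CITED2, which competes with HIF for its coactivators, had 142 ± 3.29 FPKM against 36.4 ± 0.524 (SD over 3 libraries each), which is 1.96 as a log2 fold change, and ARNT2 had 1.35. CUL2, the scaffold of the ubiquitin ligase that recognises hydroxylated HIF, had -1.01, SIAH1 -0.70 and EGLN2 -0.52. ARNT, the partner of both alpha subunits, had 9.05 ± 0.385 against 11.5 ± 0.558 FPKM (SD over 3 libraries each), which is -0.34 as a log2 fold change, and VHL (-0.11) did not pass.

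The remaining hypoxia-inducible genes moved in both directions. CA12, a membrane carbonic anhydrase of pH control, had the largest increase, with 3.87, 4.45 and 4.27 FPKM in 231-BR libraries and 2.06, 1.83 and 1.76 in MDA-MB-231 libraries (log2 fold change 1.12, standard error 0.084, adjusted p = 7.6e-07 from limma). The change was 2.17-fold with no overlap, but the log2 value was 0.85 with a pseudocount of 1 and 0.81 after quantile normalization. CA9, the carbonic anhydrase most used as a hypoxia marker, was close to absent, with 0.03, 0.08 and 0.21 FPKM in 231-BR libraries. It was listed at 0 in all MDA-MB-231 libraries and was too low to be tested.

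ADM (adrenomedullin), a vasodilator peptide, had 68.44, 74.41 and 72.81 FPKM against 48.88, 50.23 and 50.42, a log2 fold change of 0.53 (adjusted p = 2.2e-07 from limma). BNIP3L (NIX), a mitophagy receptor, had 32.11, 30.95 and 31.75 FPKM against 21.99, 21.83 and 22.14, a log2 fold change of 0.52 (adjusted p = 7.6e-08 from limma). Both genes were higher in every 231-BR library. The related receptor BNIP3 had 58.23, 57.04 and 60.99 FPKM against 64.47, 65.04 and 62.79, a log2 fold change of -0.13 that did not pass when FPKM were scaled to the sum of the library (adjusted p = 0.12 from limma). ANKRD37, an ankyrin repeat protein, had 1.14, 1.64 and 1.54 FPKM against 1.26, 0.86 and 1.04, and its ranges overlapped. Its log2 fold change of 0.42 passed with an adjusted p of 0.036 from limma and failed in 9 of 15 alternative settings, among them the omission of replicate 2 (0.14) or 3 (0.11) of 231-BR and of replicate 2 (0.13) or 3 (0.076) of MDA-MB-231, and with a term for the replicate block (0.055).

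DDIT4 (REDD1), which restrains mTORC1 under low oxygen and other stress, had the largest decrease. It had 7.37, 7.79 and 7.03 FPKM in 231-BR libraries and 15.30, 17.37 and 16.36 in MDA-MB-231 libraries. The lowest MDA-MB-231 library was well above the highest 231-BR library, and the decrease was 2.19-fold (log2 fold change -1.13, standard error 0.056, adjusted p = 3.6e-08 from limma). In all alternatives DDIT4 stayed between -1.26 and -1.05. Of the 36 other hypoxia-inducible genes that could be tested, 14 were higher, 18 lower and 4 did not pass, with a median log2 fold change of -0.11 (44.4% higher and 32.9% lower over all genes tested). When FPKM were scaled to the sum of the library, 15 were higher and 13 lower. VEGFA, the angiogenic growth factor, had 12.7 ± 0.793 FPKM in 231-BR cells, against 54.4 ± 1.07 in the parental line (SD over 3 libraries each), which is -2.09. as a log2 fold change VLDLR, a lipoprotein receptor, had -1.87. The largest increases were in MXI1, a MAX partner that opposes MYC (1.76), and in the collagen-modifying enzymes LOX (1.63) and PLOD2 (1.18).

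**Figure D4:**
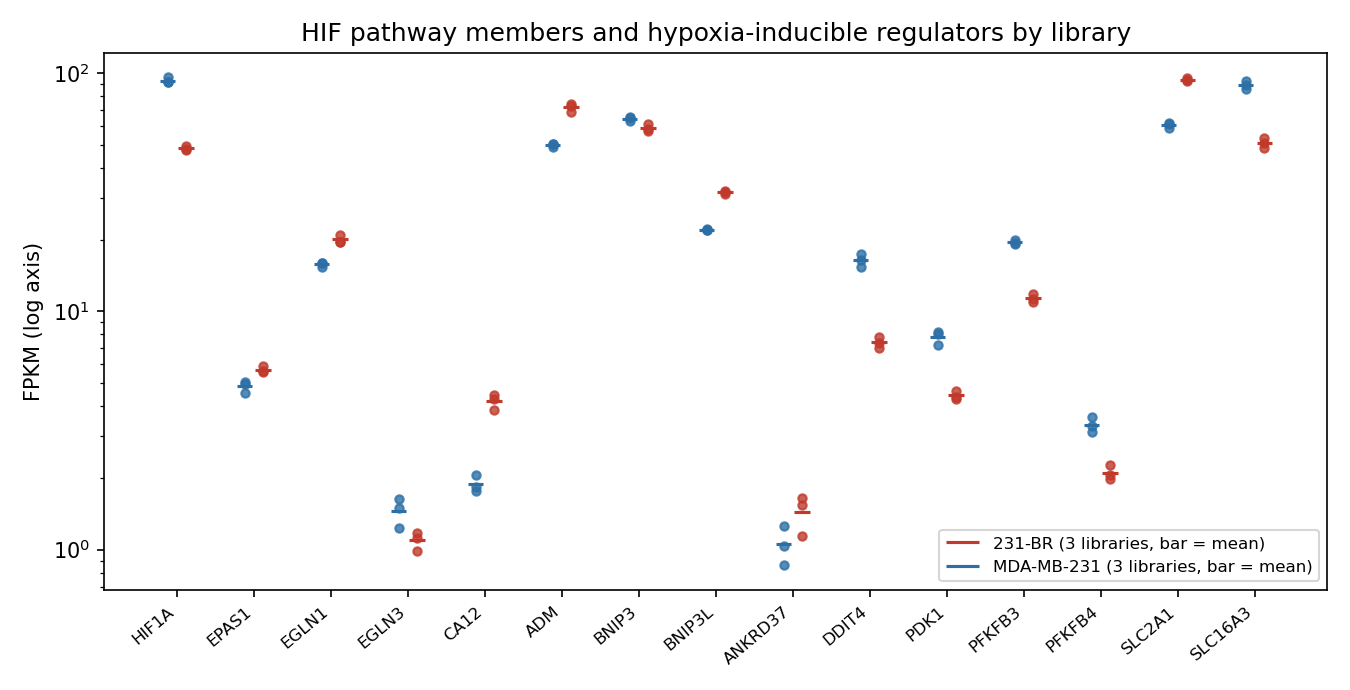
Points give the FPKM of 15 genes in each library on a log axis, and bars give the mean of a line. HIF1A, DDIT4, PDK1, PFKFB3, PFKFB4 and SLC16A3 lie lower in every 231-BR library, SLC2A1, CA12, ADM, BNIP3L, EGLN1 and EPAS1 lie higher, and only ANKRD37 overlaps.

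HIF binds DNA at a short core, ACGTG or GCGTG. The 250 bases before the annotated start were searched for each of them on either strand, in RefSeq promoters of GRCh38.p14, which held 60 windows for 33 of the 36 genes. At least 1 match was found in 60.0% of these windows and in 43.2% of all 35116 windows, and ACGTG alone in 38.3% and 18.5%. Windows of 1 gene can share sequence, and ACGTG also matches part of CACGTG, the E-box bound by MYC and other factors. The 35116 windows were not limited to expressed genes. A window with a match was present for 8 of the 9 genes that were higher and had a window, and for 17 of the 20 that were lower. A gene with more windows has more chances of a match, and the share of all genes counted in this way was not determined. The letters were thus present before genes of both directions. The windows of the 3 genes past the fold criterion are shown, with those of LDHA, lower in 231-BR cells, and of PGK1, which was higher. Capitals mark a match on either strand, and each sequence is written 5′ to 3′ on the strand of the gene.

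DDIT4, lower, chr10:72273674-72273923, plus strand: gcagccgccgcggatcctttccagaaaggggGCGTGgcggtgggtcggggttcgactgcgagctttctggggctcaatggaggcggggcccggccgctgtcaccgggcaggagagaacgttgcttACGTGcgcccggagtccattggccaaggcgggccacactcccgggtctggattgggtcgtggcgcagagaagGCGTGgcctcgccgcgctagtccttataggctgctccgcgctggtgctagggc
ENO2, lower, chr12:6914330-6914579, plus strand: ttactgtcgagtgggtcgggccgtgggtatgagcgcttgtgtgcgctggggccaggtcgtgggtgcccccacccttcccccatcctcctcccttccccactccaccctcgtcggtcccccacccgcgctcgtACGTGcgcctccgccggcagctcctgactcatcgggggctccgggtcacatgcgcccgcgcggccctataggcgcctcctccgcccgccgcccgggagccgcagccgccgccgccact
LDHA, lower, chr11:18394313-18394562, plus strand: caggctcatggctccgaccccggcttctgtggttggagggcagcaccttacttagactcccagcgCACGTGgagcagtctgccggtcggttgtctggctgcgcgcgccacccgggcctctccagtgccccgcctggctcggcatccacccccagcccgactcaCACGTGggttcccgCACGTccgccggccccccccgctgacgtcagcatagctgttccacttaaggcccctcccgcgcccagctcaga
CA12, higher, chr15:63381847-63382096, minus strand: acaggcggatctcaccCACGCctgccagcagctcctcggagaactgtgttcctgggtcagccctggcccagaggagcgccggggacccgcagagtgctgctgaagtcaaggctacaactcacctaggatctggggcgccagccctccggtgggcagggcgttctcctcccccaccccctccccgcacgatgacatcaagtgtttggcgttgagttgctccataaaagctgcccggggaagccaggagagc
PGK1, higher, chrX:78103998-78104247, plus strand: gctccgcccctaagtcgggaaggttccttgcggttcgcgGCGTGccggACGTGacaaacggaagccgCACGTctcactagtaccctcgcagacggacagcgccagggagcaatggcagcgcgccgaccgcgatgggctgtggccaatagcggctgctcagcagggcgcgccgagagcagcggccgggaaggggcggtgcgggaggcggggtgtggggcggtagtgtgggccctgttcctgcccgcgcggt

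LDHA has 2 annotated windows, and the one with more matches is shown. It holds 5 overlapping matches, 4 of them within 2 copies of CACGTG, from 185 to 73 bases before the start. DDIT4 and PGK1 hold 3 matches each, from 219 to 53 and from 211 to 183 bases before the start, while ENO2 holds 1 match at 118 bases and CA12 holds 1 at 234 bases before the start.

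The fold changes were set beside those of neighbouring genes on the chromosome. For 29 of the 36 genes, the median log2 fold change of the 40 nearest expressed genes (20 on either side, mean FPKM of at least 1) could be given, and over all 10130 genes placed the quartiles of this median were -0.15 and 0.29. PGK1 lies on chromosome X at 77910739 to 78129296, where all 40 neighbours were higher in 231-BR cells with a median of 1.09, above that of 99.7% of genes placed. PGK1 itself, at 0.36, was below 39 of its 40 neighbours. SLC2A1 (0.63) and EGLN1 (0.34) lay among neighbours with medians of 0.41 and 0.42. GAPDH, TPI1, ENO2 and SLC2A3 lie within 23 expressed genes of each other on chromosome 12 and have neighbours in common, and their neighbour medians were -0.30, -0.30, -0.30 and -0.29. GAPDH at -0.31 was near its neighbours, TPI1 at -0.56 and ENO2 at -1.02 were below them, and SLC2A3 at 0.06 was above. PFKM, farther along the same chromosome, had -0.46 with a neighbour median of -0.37, and PDK1 on chromosome 2 had -0.80 with -0.30. HIF1A and EGLN3 on chromosome 14 were lower at -0.94 and -0.37 among neighbours with medians of 0.34 and 0.41, and CA12 was higher at 1.12 where the median was -0.16. The sign of the gene matched that of its neighbours in 16 of the 29 and differed in 13. The part of the position in these differences was not tested.

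**Figure D5:**
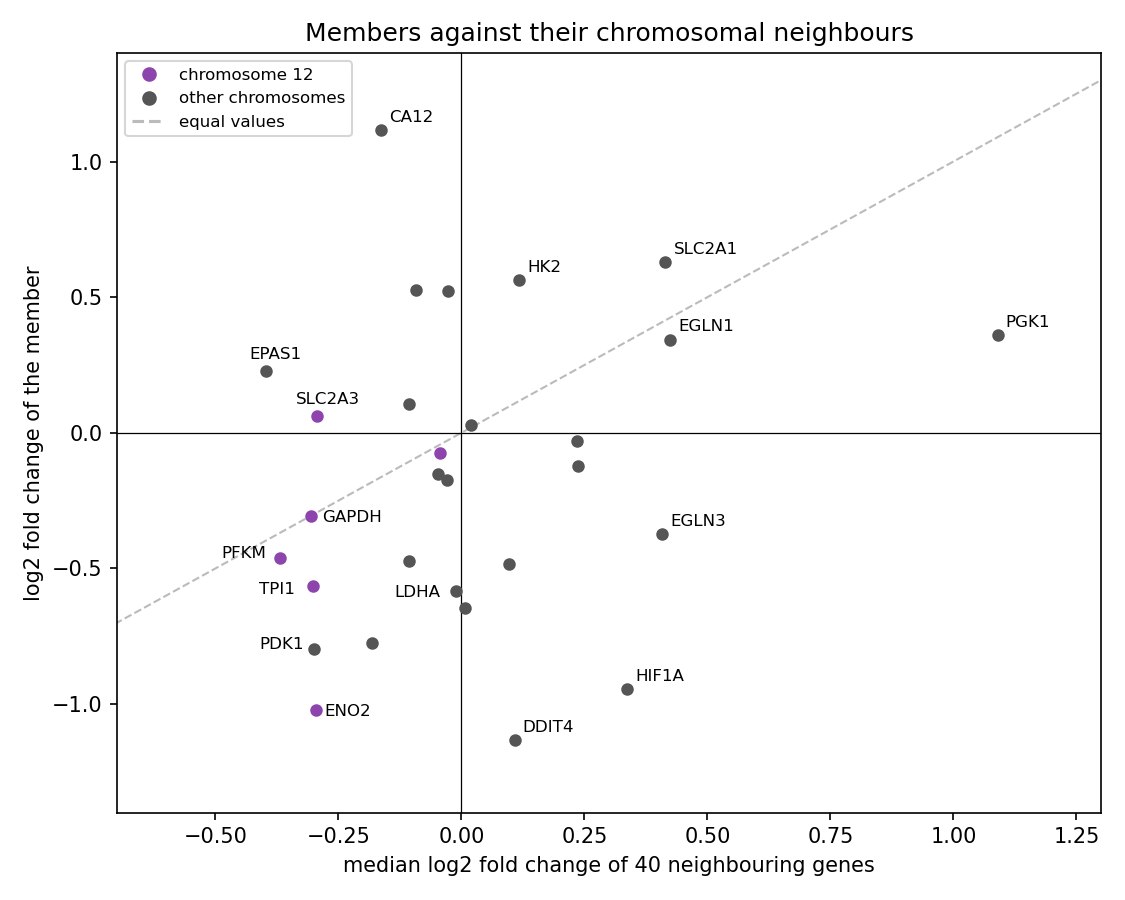
Each point is 1 of 29 genes, with the x axis giving the median over the log2 fold changes of its 40 neighbours and the y axis its own log2 fold change, and the dashed line marks equal values. PGK1 stands apart at a neighbour median of 1.09, and the chromosome 12 genes GAPDH, TPI1, ENO2 and SLC2A3 share a median near -0.30.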

How the data were processed

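For each line, 3 libraries of poly(A) RNA were sequenced as paired reads on BGISEQ-500. The authors filtered reads with SOAPnuke 1.5.2, aligned them with HISAT2 2.0.4 to the genome (GRCh38.p12 in the submitters' processing notes) and with Bowtie2 2.2.5 to a gene set, and deposited FPKM with 2 decimals. The program behind the FPKM is not given in the sources used here. The study's count test could not be used on FPKM. The deposited table and the files of single libraries held the same values, and 25 symbols turned into dates were restored by identifier.

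The line was the only term of a limma 3.58.1 model (R 4.3.3, eBayes with trend) of log2(FPKM + 0.1), for the genes that averaged 0.1 FPKM or more. Isozyme ratios and sums were compared by exact permutation tests (scipy 1.17.1). Gene positions came from GENCODE 29, promoters from RefSeq. The fit was tested on simulated data. Libraries were grouped by title, since the number in the cell line label rises by 1 with each replicate. The replicate numbers did not pair the libraries, and their use as a block was an alternative.

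The gene lists, the 36 genes and the alternatives were chosen with earlier results of these data known. All 36 are named. Values in every library were given for genes past the fold criterion or over 0.58 in absolute log2 fold change, GAPDH, HIF1A, EPAS1 and paired forms. From each pathway list at most the 3 largest increases and 3 largest decreases were named among genes that passed and averaged at least 1 FPKM in either line, a limit not set for reference genes, while ARNT, VHL and BSG were chosen after their values were seen, and a few list genes are not reported here. The alternatives were quantile normalization, scaling by median of ratios or by the library's summed FPKM, pseudocounts of 1 and 0.01, no filter or one at 1 FPKM, no trend, the block, each library left out, and other fold or FPKM criteria.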

Additional observations from a re-analysis of the deposited data

How the results depend on the processing

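Of the 31 genes called, 23 kept their direction and call in all alternatives, and the signs that turned belonged to genes that had not passed. PGAM1 turned to -0.056 after median-of-ratios scaling, ENO1 to 0.11 after quantile normalization and 0.038 when scaled to the library's sum, SLC2A3 to -0.021 after median-of-ratios scaling and -0.13 after quantile normalization, and PDK3 to -0.21 after quantile normalization, and all of these but ENO1 scaled to the sum and SLC2A3 after median-of-ratios scaling then passed the test. The log2 ratio of CA12 to CA9, 0.16 higher in 231-BR cells, was -2.06 with a pseudocount of 0.01 and ran from -0.068 (without 231-BR replicate 1) to 0.49 with a library left out, as CA9 is listed at or near 0. Past the fold criterion, the 1 higher and 2 lower genes became 0 and 1 with a pseudocount of 1, 0 and 2 after quantile normalization, 2 and 1 when scaled to the sum, and 0 and 0 at an absolute log2 fold change over 1.5. The median of the genes was -0.15, against 0.08 over all genes tested. These values were -0.23 and -0.002 after median-of-ratios scaling, and -0.071 and 0.15 when scaled to the sum. After quantile normalization they were -0.13 and -0.06, closer together than as deposited. The summed enzymes, at -0.28, had -0.36 after median-of-ratios scaling, -0.080 after quantile normalization and -0.21 when scaled to the sum, and -0.30 to -0.26 with a library left out. With the replicate block, 9 genes were higher and 21 lower, and only ANKRD37 lost its call. Deviations of same-numbered libraries correlated at 0.09, -0.04 and -0.11, so that the numbers were not used for pairing. The unknown depth limits genes near 1 FPKM most, such as ALDOC, SLC16A1, EGLN3 and ANKRD37. The cause of these shifts was not tested.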

Other observations

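Branches next to glycolysis were examined with lists outside the 36 genes. The counts below stand beside 44.4% higher and 32.9% lower over all genes tested. In the pentose phosphate pathway, which makes NADPH and ribose, 4 of 7 genes were lower in 231-BR cells, 2 were higher and 1 did not pass, with a median log2 fold change of -0.41. TALDO1 had 86.8 ± 3.98 FPKM in 231-BR cells, against 216 ± 10.7 in the parental line (SD over 3 libraries each), which is -1.31 as a log2 fold change, and TKT had -1.08. PGLS, the lactonase of the pathway, had 57.8 ± 3.34 FPKM against 19.0 ± 1.02 (SD over 3 libraries each), which is 1.60. as a log2 fold change Of 11 genes of pyruvate entry into mitochondria, 9 were higher, 1 was lower (PDHA1, -0.54) and 1 did not pass, with a median log2 fold change of 0.17 against 0.08 over all genes tested, and 5 of the 11 were higher after median-of-ratios scaling or quantile normalization. The genes that were higher act in both directions. PDK2, like PDK1, blocks the entry of pyruvate into the citric acid cycle. It had 10.2 ± 0.157 FPKM against 4.04 ± 0.465 (SD over 3 libraries each), a log2 fold change of 1.32. Pyruvate carboxylase (PC) had 0.92, and PDP2, a phosphatase that activates pyruvate dehydrogenase, had 0.53.

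Of 17 further glycolysis genes tested, 4 were higher, 9 lower and 4 did not pass, with a median log2 fold change of -0.25. Among those of at least 1 FPKM in either line, PFKFB2 had 1.23 and the monocarboxylate transporter SLC16A7 had 0.28. SLC2A4 (GLUT4) and LDHD were also higher (2.76 and 1.90), at means of 0.667 and 0.420 FPKM in 231-BR cells. The transporters SLC2A6 and SLC2A8 had log2 fold changes of -1.08 and -1.02, and BPGM, which makes 2,3-bisphosphoglycerate, had -0.59. PGAM2 had -0.79 at 0.327 FPKM in MDA-MB-231 cells and less in 231-BR cells. SLC2A4, LDHD and PGAM2, under 1 FPKM in both lines, were chosen after their values were seen.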
